A study of Mus musculus with 14 samples.

Results

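The genes compared here were all those with a mean of at least 10 normalized counts over 6 libraries of mouse CD8 T cells activated through the T cell receptor alone. Of the 14732 genes in the deposited table for that stimulation, 9290 met this rule, and each was compared between libraries labelled Morrbid-/- and wild-type libraries. The series holds 14 libraries, of which the 8 made with added IFN-beta were not used. All 6 libraries used came from splenic CD8 T cells of the C57BL/6 strain, sorted as naive cells with CD44 low among the criteria. In both genotypes the cells were cultured for 6 h with plate-bound anti-CD3 and soluble anti-CD28, each at 1 µg/mL, and without IFN-beta. Each genotype had 3 libraries, made from 100 ng of total RNA. The labels give neither the age of the mice nor the part of Morrbid that was deleted. They do not say whether replicates came from separate animals, so a p-value here measures only how far these samples spread, and that spread may be technical. In bulk RNA, fewer cells of a type and less RNA per cell cannot be told apart.

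Anti-CD3 and anti-CD28 stand in for the antigen and costimulatory signals that take a naive T cell out of rest. Morrbid, a long noncoding RNA, is transcribed from a gene beside Bcl2l11, the gene of the pro-apoptotic protein BIM, and CD8 T cells are the precursors of cytotoxic T cells. Interferons signal through paired receptor chains and Janus kinases to STAT proteins. These bind gamma-activated sites, or, with IRF9, interferon-stimulated response elements in the promoters of target genes. Among the targets are several families of GTPases that attack intracellular pathogens, RNA-binding proteins that hold back viruses, and the machinery of antigen presentation by MHC class I.

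Library depth ran from 1747634 to 2963149 recovered reads, and the mitochondrial 16S rRNA took between 11.6% and 18.9% of them. The 8 CD8 T cell markers were all present and summed to 4035 to 5022 normalized counts in every library, and the 6 naive T cell markers to 10238 to 12814. Markers of NK cells and erythroid cells summed to at most 3.07 and 1.04, and those of B cells to at most 5.36. The monocyte, macrophage and dendritic cell markers in the table, 6 of 11 listed, summed to 20.8 to 32.2 in wild type and 25.3 to 40.6 in the libraries labelled Morrbid-/-, and their part in the results was not tested. Morrbid, listed as Gm14005, was at 1.79, 4.16 and 1.53 normalized counts in wild type and at 7.10, 5.24 and 7.16 under the Morrbid-/- label, below the mean needed for the test. These came from 8 reads against 18, a rate ratio of 2.80 (95% counting interval 1.16 to 7.43, which covers counting error only). The reads thus did not show the loss that the labels give, though reads from a part that was not deleted would check nothing. All directions below follow the labels.

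In activated CD8 T cells without added interferon, 50 genes rose under the Morrbid-/- label, and most of them belonged to lists of interferon genes. These 50 genes were 0.538% of the 9290 tested. Of the 50, 38 belonged to the gene lists of interferon targets and signalling, led in number by 9 guanylate-binding protein genes and 7 immunity-related GTPase genes. The lists were chosen with earlier results of these data known, and their joint share of all tested genes was not counted. The 2 lists with the most tested genes were those of MHC class I, with 24, and antiviral restriction factors, with 21. Of these, 12.5% and 14.3% passed as higher, against 0.538% of all tested genes. Every tested gene of the guanylate-binding protein and immunity-related GTPase families passed. The OAS and Mx, pyrin-HIN, TRIM, Schlafen and MHC class II lists held 0 genes that passed. Only 9 genes, 0.0969%, were lower, and they shared no list. Differences are given on the scale of log2(normalized count + 1), Morrbid-/- label minus wild type, and a gene passed at a limma adjusted p under 0.05. In all 59 genes passed (0.635%), against 567 with an unadjusted p under 0.05. The genotypes overlapped in none of these 59, so a gap described below is no further support for a gene that passed. Among all genes tested, 10.9% had no overlap. The change exceeded 2-fold in 32 of the higher and 5 of the lower genes. The median difference of all tested genes was -0.01.

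**Figure D1:**
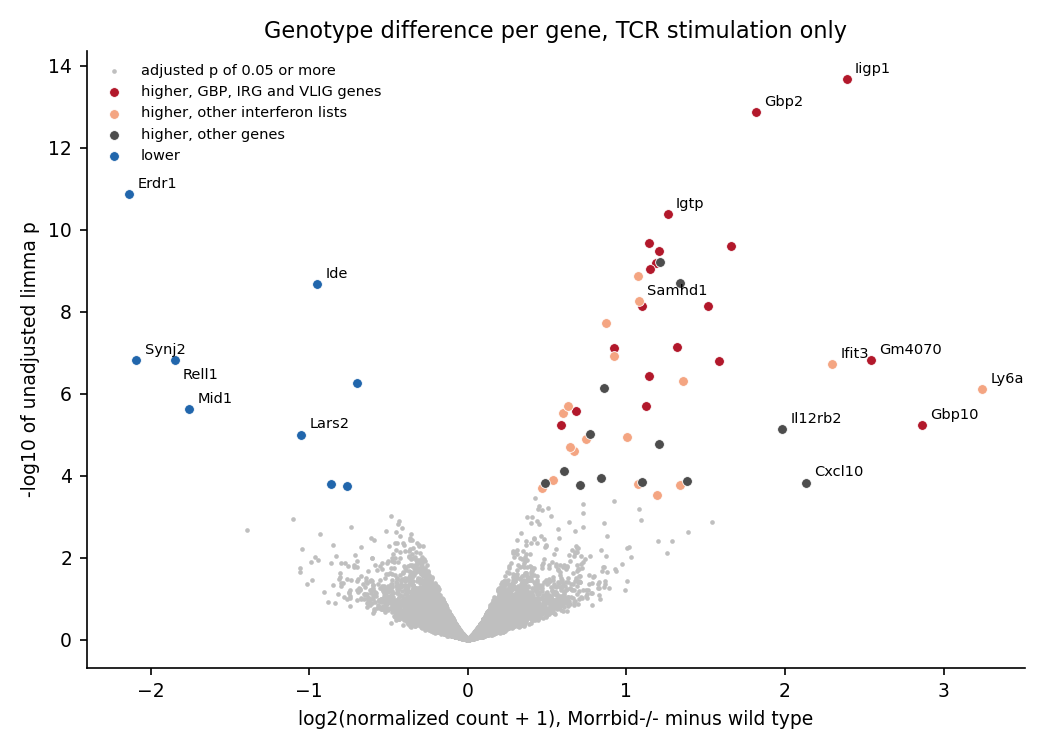
Each point is 1 of 9290 genes. The x axis gives the difference in log2(normalized count + 1) between the libraries labelled Morrbid-/- and wild type, the y axis -log10 of the unadjusted limma p. The 19 higher genes of the 3 GTPase families (red) and 18 of the other interferon lists shown (orange) make up most of the right side, with 13 other higher genes (dark grey) and 9 lower genes (blue).

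The depth of each gene set what could be seen. In the range from 10 to 50 lay 3422 genes, which had a median SE of 0.28, and none of them passed with a difference smaller than 1.07. For the 3557 genes between 50 and 200 the median SE was 0.16, and the smallest difference to pass was 0.61. The 95% interval lay within 2-fold for 90.7% of all genes tested and within 0.5 on the log2 scale for 50.2%. Just inside the mean of 10 lay Sesn2 (10.002), and just outside it Nfkbil1 (9.998) and Fbxl8 (9.991). Without Morrbid-/- replicate 2, 31 genes were higher, and 19 of the 50 calls were lost. The count of lower genes moved most without Morrbid-/- replicate 1 and wild-type replicate 3, to 23 and 18. Without wild-type replicate 2, 12 of the higher and 3 of the lower calls were lost. A total of 31 higher and 6 lower genes passed with any of the 6 libraries left out. Without the mean-variance trend of limma, the calls of 13 higher genes remained (Iigp1, Gbp2, Gbp6, Gbp7, Igtp, Irgm1, Tgtp1, Gm12185, Gvin1, Gm4070, Ifi47, Ifit3 and Usp18), as did those of 4 lower genes (Erdr1, Synj2, Rell1 and Ide). All the other calls below were lost in that fit.

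All 9 tested guanylate-binding protein genes rose. These large GTPases coat bacteria and the vacuoles of intracellular parasites. Gbp2 was at 227, 162 and 180.4 in wild type against 605, 749 and 646 under the Morrbid-/- label. Every library under the Morrbid-/- label stood at more than 2-fold the highest wild-type value, and the difference was 1.81, SE 0.12 (limma adjusted p = 6.17e-10). Gbp6 was at 53.6, 62.4 and 66.5 in wild type against 155, 239.6 and 194 under the Morrbid-/- label, without overlap (1.66, SE 0.16; adjusted p = 3.82e-07). Gbp5, whose protein is also tied to inflammasome assembly, was at 42.9, 36.4 and 52.7 in wild type against 83.1, 166 and 169 under the Morrbid-/- label. Its replicate 1 under the Morrbid-/- label was far below the others of its group, yet above wild type (1.59, SE 0.22; adjusted p = 6.22e-05). Gbp10 had the largest difference of the family from the fewest reads, at 2.68, 8.32 and 0.764 in wild type against 19.3, 40.6 and 26.6 under the Morrbid-/- label (2.86, SE 0.49; adjusted p = 0.00146). Gbp10 met the mean of 10 only through the libraries labelled Morrbid-/-, with a wild-type mean of 3.92, so it entered the test because it was high there. Its call was lost without Morrbid-/- replicate 2 (adjusted p = 0.0894).

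The other 5 family members rose by smaller factors than these. Gbp4 was at 454, 619 and 595 in wild type against 1055, 1372 and 1360.0 under the Morrbid-/- label, a difference of 1.18, SE 0.12 (adjusted p = 6.53e-07). Gbp7 was at 187, 197 and 171 in wild type against 351, 474 and 416 under the Morrbid-/- label (1.15, SE 0.12; adjusted p = 8.50e-07). Both left a clear gap between genotypes. Gbp3 (1.14, SE 0.16), Gbp8 (1.13, SE 0.18) and Gbp9 (0.68, SE 0.11) also rose, with adjusted p-values of 1.29e-04, 5.86e-04 and 7.31e-04. The median difference of the 9 genes was 1.18. The family summed to 1426, 1639 and 1638 normalized counts in wild type, against 3034, 4070 and 3849 under the Morrbid-/- label. Within the Morrbid-/- label, replicate 1 was the lowest library for 9 of 9 of these genes, against 35.7% of all genes tested. Gbp2b and Gbp11 lay below the mean of 10. Genes of this family resemble each other, and reads shared between copies could have been split among them.

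All 7 tested immunity-related GTPase genes rose as well. Their proteins disrupt pathogen vacuoles, and Irgm1, Irgm2 and Igtp encode the regulatory members that hold the others inactive on the cell's own membranes. Iigp1, an effector member, was at 56.3, 54.1 and 44.3 in wild type against 233, 301 and 289.6 under the Morrbid-/- label, a 5.24-fold change (2.39, SE 0.15; limma adjusted p = 1.91e-10). That was the smallest p-value of all genes tested. Gm12250, the gene of the effector IRGB10, was at 42.0, 67.6 and 54.3 in wild type against 134, 181 and 153 under the Morrbid-/- label (1.51, SE 0.17; adjusted p = 4.21e-06). Igtp was at 274, 249.7 and 295 in wild type against 583, 759.5 and 631 under the Morrbid-/- label (1.26, SE 0.11; adjusted p = 9.57e-08). The highest wild-type library for each of these 3 genes lay well below the lowest library labelled Morrbid-/-. Irgm1 was at 232, 261 and 269 in wild type against 569.7, 623 and 496 under the Morrbid-/- label (1.14, SE 0.11; adjusted p = 3.82e-07). Irgm2 was at 189.5, 156 and 209 in wild type against 337, 448 and 403 under the Morrbid-/- label (1.10, SE 0.13; adjusted p = 4.21e-06). Neither gene overlapped between genotypes. Tgtp1 and Tgtp2 are near copies of each other. Tgtp1 was at 269, 249 and 219 in wild type against 620.4, 615 and 472 under the Morrbid-/- label (1.20, SE 0.12; adjusted p = 4.24e-07). Tgtp2 was at 339, 324 and 271 in wild type against 666, 638 and 479 under the Morrbid-/- label (0.92, SE 0.12; adjusted p = 3.67e-05). Both stood apart by genotype, and the neighbouring gene model Gm12185 was at 83.1, 85.3 and 78.7 in wild type against 219, 248 and 169.9 under the Morrbid-/- label (1.34, SE 0.14; adjusted p = 1.48e-06). The median of the 7 listed genes was 1.20.

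The promoters of several of these GTPase genes are shown because they carry the same short arrangement of motif cores. In each line the capitals mark matches to the core of the gamma-activated site, TTCNNNGAA, or to the core of the interferon-stimulated response element, GAAANNGAAA on either strand. The sequences are stretches before the transcript start from RefSeq on GRCm38.p6, read 5′ to 3′ on the gene's strand.
Tgtp1 (chr11:48992304-48992344, minus strand): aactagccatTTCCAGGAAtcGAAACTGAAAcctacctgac
Tgtp2 (chr11:49064263-49064303, minus strand): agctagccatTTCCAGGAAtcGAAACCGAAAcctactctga
Gm12185 (chr11:48927238-48927278, minus strand): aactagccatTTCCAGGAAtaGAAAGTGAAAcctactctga
Igtp (chr11:58199501-58199541, plus strand): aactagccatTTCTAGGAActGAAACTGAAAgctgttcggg
Irgm2 (chr11:58214892-58214932, plus strand): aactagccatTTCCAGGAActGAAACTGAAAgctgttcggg
In these 5 genes the first core is a gamma-activated site and the second a response element, 2 bases apart. The response element core reads GAAANNGAAA on the gene's strand in each, while the other core reads the same on both strands. Of the 7370 tested genes with a promoter in the RefSeq table, these 5 (0.0678%) were the only ones that held this arrangement between 250 bases before and 50 after the start, and all 5 rose. Most of them belong to 1 gene family, and all lie on chromosome 11, so they are not independent cases. The arrangement was looked for after these promoters had been seen, and a match is a description of letters, not a binding site or a cause.

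Other GTPase promoters held the same cores in other orders. They are shown to let the spacing be compared with the 5 above.
Irgm1 (chr11:48871425-48871460, minus strand): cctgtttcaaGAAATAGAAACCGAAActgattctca
Gm12250 (chr11:58183742-58183816, plus strand): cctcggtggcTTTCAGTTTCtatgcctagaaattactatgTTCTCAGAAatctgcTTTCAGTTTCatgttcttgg
Gbp2 (chr3:142620594-142620623, plus strand): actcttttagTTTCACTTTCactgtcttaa
Gbp3 (chr3:142559989-142560024, plus strand): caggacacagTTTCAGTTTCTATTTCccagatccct
Gbp5 (chr3:142496872-142496900, plus strand): tggccgttatTTCTCAGAAccaagcacag
Gbp7 (chr3:142530220-142530302, plus strand): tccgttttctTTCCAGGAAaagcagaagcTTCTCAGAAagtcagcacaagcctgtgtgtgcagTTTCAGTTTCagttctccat
Irgm1 and Gbp3 each held overlapping response element cores. Gm12250 and Gbp7 held both kinds of core. In Gbp2, Gbp3, Gbp7 and Gm12250 the response element core was read on the other strand. In the stretch shown, Gbp5 held only a gamma-activated site core, while its full window held both.

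Over all the higher genes, motif cores of the interferon pathway were frequent near the start. A promoter was found for 31 of the 50 higher genes and 8 of the 9 lower ones. The response element core stood in 19 of the 31 (61.3%), against 3.91% of the 7370 tested genes with a promoter. Among the 19 were all 4 guanylate-binding protein genes, all 6 immunity-related GTPase genes and the 1 very large GTPase gene that had a promoter. Related genes can share promoter sequence, so the 31 are not independent cases. The gamma-activated site core stood in 12 (38.7%), against 8.37% of all. Both cores stood in 9 (29.0%), against 0.57% of all. Of the 8 lower genes, Gm14085 alone held a response element core, and 0 held the other. Most genes with a core did not pass: of 288 genes with a response element core, 19 (6.60%) passed as higher. The 269 others had a median difference of 0.02, and 146 of them (54.3%) lay above 0. Of the 9 interferon-linked TRIM genes with a promoter, 8 held the response element core, and 0 of the 10 tested TRIM genes passed.

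**Figure D2:**
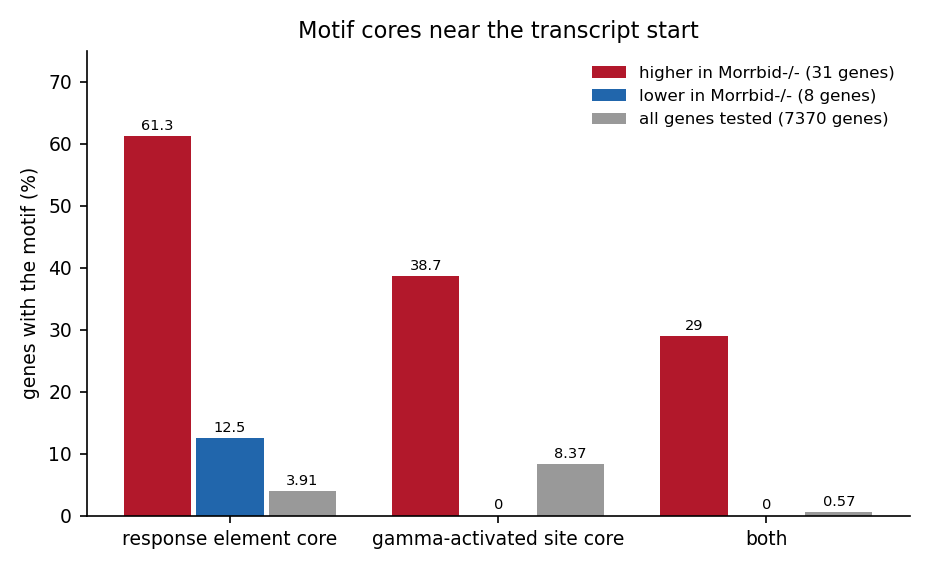
Bars give the percentage of genes whose window, from 250 bases before to 50 after the RefSeq transcript start, holds the response element core, the gamma-activated site core or both. Red stands for 31 higher genes, blue for 8 lower genes and grey for all 7370 tested genes with a promoter. The response element core stood in 61.3% of the higher genes and 3.91% of all genes.

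Of 4 tested very large interferon-inducible GTPase genes, 3 rose. Gvin1 was at 36.6, 40.6 and 38.2 in wild type against 105, 91.7 and 96.2 under the Morrbid-/- label, with a wide gap between genotypes (1.32, SE 0.17; limma adjusted p = 3.67e-05). The family member Gm4070 was at 3.58, 6.24 and 11.5 in wild type against 41.6, 47.1 and 38.9 under the Morrbid-/- label, a 5.83-fold change (2.54, SE 0.35; adjusted p = 6.14e-05). Gm1966, far more abundant, changed by a smaller factor, from 1805, 1969 and 1609 to 2538, 2792 and 2738 (0.59, SE 0.10; adjusted p = 0.00146), and lost its call without Morrbid-/- replicate 2 (adjusted p = 0.0551). Gm8995, a gene model between Gvin1 and Gm1966, was at 3807, 3589 and 3643 in wild type against 4739, 5673 and 5096 under the Morrbid-/- label (0.49, SE 0.11; adjusted p = 0.0264). Its call was lost without wild-type replicate 2 or 3 or Morrbid-/- replicate 2 or 3 (adjusted p from 0.0597 to 0.510). Gm4759 did not pass (0.38, 95% interval 0.17 to 0.58; adjusted p = 0.131), although its libraries did not overlap. The size of the change thus differed widely among neighbours whose reads may be shared.

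**Figure D3:**
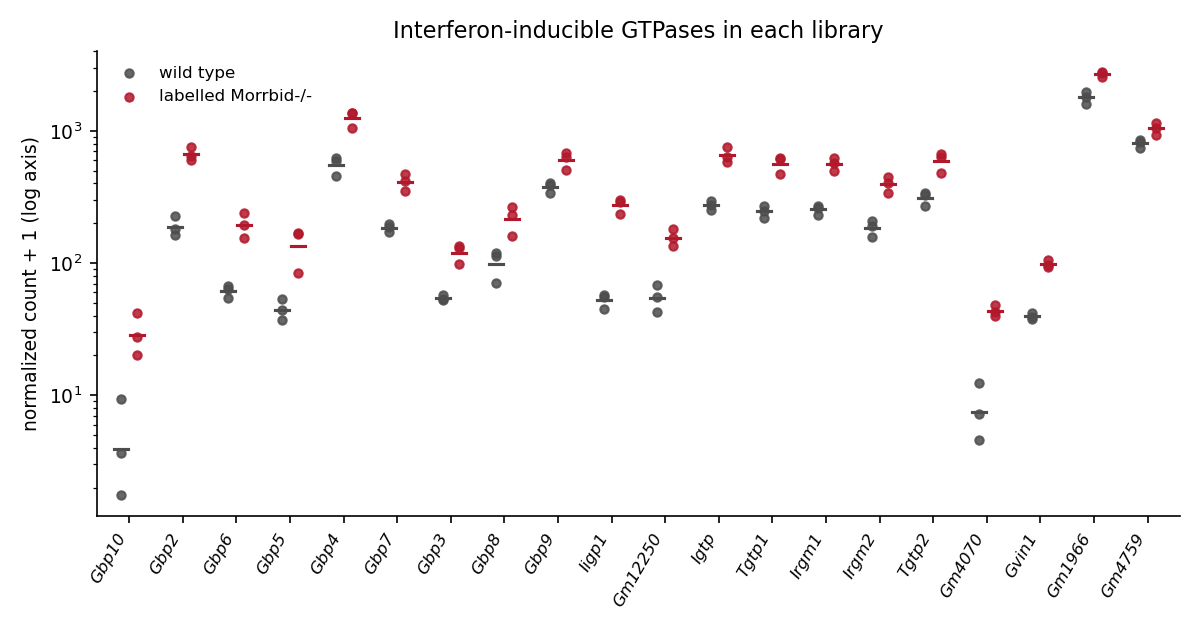
Normalized count + 1 on a log axis for each tested member of the 3 GTPase families, with 1 point per library and bars at the mean of the log values. For each of the 20 genes the 3 libraries labelled Morrbid-/- (red) lie above the 3 wild-type libraries (grey). Gm4759, the rightmost gene, did not pass.

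Genes of the classical antiviral response were divided. Of 8 tested genes of the Ifit and Ifi27/Ifi44 list, 3 rose. Ifit3, whose protein binds the IFIT complex that recognizes foreign RNA ends, was at 6.26, 6.24 and 9.94 in wild type against 31.4, 39.3 and 51.2 under the Morrbid-/- label (2.30, SE 0.32; limma adjusted p = 7.04e-05). It met the mean of 10 only through the libraries labelled Morrbid-/-, with a wild-type mean of 7.48. Ifit1, the RNA-binding member, was at 48.3, 32.3 and 29.0 in wild type against 98.3, 96.9 and 83.9 under the Morrbid-/- label (1.36, SE 0.20; adjusted p = 1.70e-04). Ifi47, which also encodes an immunity-related GTPase, was at 104, 108 and 99.4 in wild type against 201, 202 and 190.3 under the Morrbid-/- label (0.92, SE 0.12; adjusted p = 5.48e-05). In each of them the genotypes were well apart. Ifit2, their neighbour in sequence and function, was at 179.7, 189 and 158 in wild type against 209, 181 and 204 under the Morrbid-/- label and overlapped, with a 95% interval of -0.08 to 0.42. The Ifit1 and Ifit3 promoters each held a pair of response element cores in the opposite-strand reading, shown here with the single core of Cxcl10.
Ifit1 (chr19:34640775-34640823, plus strand): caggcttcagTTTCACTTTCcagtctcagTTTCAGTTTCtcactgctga
Ifit3 (chr19:34583363-34583426, plus strand): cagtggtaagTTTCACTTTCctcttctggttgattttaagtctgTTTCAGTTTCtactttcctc
Cxcl10 (chr5:92349083-92349112, minus strand): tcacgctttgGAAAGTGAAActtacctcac

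The list of OAS and Mx genes gave 0 passing members of 4 tested. Oas1b was at 8.04, 13.5 and 13.8 in wild type against 17.2, 28.8 and 27.6 under the Morrbid-/- label (1.00, 95% interval 0.32 to 1.68; limma adjusted p = 0.405). Oasl2 was at 10.7, 5.20 and 3.06 in wild type against 13.2, 14.4 and 17.4 under the Morrbid-/- label (1.26, 95% interval 0.37 to 2.14; adjusted p = 0.459). Both had all libraries of the Morrbid-/- label above wild type without passing. Mx1, Mx2 and Oasl1 were at or under 6.55 normalized counts in every library, too low for a test. In the ISG15 system 1 of 4 passed: Usp18, the protease that removes ISG15 and dampens type I interferon signalling, was at 11.6, 12.5 and 8.41 in wild type against 28.4, 28.8 and 28.7 under the Morrbid-/- label (1.34, SE 0.30; adjusted p = 0.0284). Its call was lost without any of 5 libraries, wild-type replicate 2 or 3 or any of the Morrbid-/- replicates (adjusted p from 0.0510 to 0.199), with DESeq2, and without the filter on low values. Isg15 itself was at or under 2.68 in every library. None of the 6 tested genes of the pyrin-HIN cluster, which holds cytosolic DNA sensors, passed. Mndal (0.34, 95% interval 0.13 to 0.54; adjusted p = 0.252) and Ifi203 (0.37, 95% interval 0.13 to 0.60; adjusted p = 0.329) lay above 0. Pydc3 lay below it, at 338, 486 and 360.0 in wild type against 305, 258 and 299 under the Morrbid-/- label (-0.44, 95% interval -0.70 to -0.19; adjusted p = 0.173).

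Of 10 interferon ligand genes listed, 2 were in the deposited table and 0 reached the mean needed for a test. No tested receptor gene of the interferons passed. Ifng, the gene of interferon gamma, was at 5.36, 8.32 and 3.06 in wild type against 7.10, 5.24 and 7.16 under the Morrbid-/- label, under the mean needed for a test and with overlap. Its receptor chain Ifngr1 was level, at 915, 999 and 845 in wild type against 855, 1011 and 969 under the Morrbid-/- label, with an interval of -0.17 to 0.24. The type I receptor chain Ifnar1 had an interval of -0.21 to 0.23, the second chain Ifnar2 of -0.28 to 0.31, and the kinase Jak1 of -0.28 to 0.13. These intervals exclude a change of 2-fold. Stat3 was at 0.31, 95% interval 0.09 to 0.53 (limma adjusted p = 0.462) and Ifngr2 at -0.38, 95% interval -0.72 to -0.04 (adjusted p = 0.769). Stat2, which joins IRF9 in the type I response, was at 68.8, 99.9 and 99.4 in wild type against 106, 117 and 102 under the Morrbid-/- label (0.29, 95% interval -0.03 to 0.62; adjusted p = 0.863).

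Of 9 tested interferon regulatory factor genes, 2 rose. Irf1, a factor that binds response elements and is itself a target of gamma-activated sites, was at 382, 411 and 394 in wild type against 596, 651 and 556 under the Morrbid-/- label. The groups stood apart with little spread within them (0.60, SE 0.10; limma adjusted p = 7.76e-04). Irf9, the DNA-binding subunit of the type I interferon complex, was at 167, 182 and 169.7 in wild type against 223, 276 and 257 under the Morrbid-/- label (0.54, SE 0.12; adjusted p = 0.0239). The Irf9 call was lost without any wild-type library or Morrbid-/- replicate 2 or 3 (adjusted p from 0.0510 to 0.396). Irf8 was at 26.8, 12.5 and 22.9 in wild type against 46.6, 47.1 and 35.8 under the Morrbid-/- label, without overlap but not passing (1.08, 95% interval 0.51 to 1.64; adjusted p = 0.0901). Irf7, the amplifier of type I interferon, was at 17.9, 35.4 and 18.3 in wild type against 39.5, 39.3 and 34.8 under the Morrbid-/- label and overlapped (0.71, 95% interval 0.16 to 1.27; adjusted p = 0.591). Irf4, induced by the T cell receptor, was at 933, 649 and 1094 in wild type against 1052, 1228 and 1091 under the Morrbid-/- label (0.36, 95% interval 0.09 to 0.63; adjusted p = 0.54), its lowest value being in wild-type replicate 2. The Irf1 promoter is shown for its gamma-activated site core, together with that of Samhd1.
Irf1 (chr11:53769914-53769942, plus strand): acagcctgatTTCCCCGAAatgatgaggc
Samhd1 (chr2:157135313-157135341, minus strand): acaccaccctTTCGGAGAAacacaagggc

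Of 24 tested genes of antigen presentation by MHC class I, 3 rose, each by less than 2-fold. Nlrc5, the transactivator of MHC class I genes, was at 522, 585 and 743 in wild type against 801, 1014 and 1074 under the Morrbid-/- label (0.65, SE 0.12; limma adjusted p = 0.00427). H2-T23, which encodes the nonclassical molecule Qa-1, was at 146, 169.6 and 158 in wild type against 222, 303 and 234 under the Morrbid-/- label (0.67, SE 0.13; adjusted p = 0.00499). Tapbp, the gene of the peptide-loading factor tapasin, was at 357, 324 and 294 in wild type against 409.5, 453 and 487 under the Morrbid-/- label (0.47, SE 0.11; adjusted p = 0.0313). The genotypes did not overlap in any of the 3, but each call leaned on single libraries. Nlrc5 was lost without wild-type replicate 2 or Morrbid-/- replicate 2 (adjusted p = 0.0705 and 0.132), H2-T23 without Morrbid-/- replicate 2 (0.187), and Tapbp without wild-type replicate 2 or 3 or Morrbid-/- replicate 2 or 3 (0.139 to 0.308). The median over the list was 0.31, with 23 of 24 genes above 0. In 12 of the 24 every library labelled Morrbid-/- lay above every wild-type one, against 5.53% of all genes tested. Psme2 (0.44, 95% interval 0.21 to 0.67; adjusted p = 0.0901), a proteasome activator subunit, and the peptide transporter Tap1 (0.40, 95% interval 0.18 to 0.62; adjusted p = 0.131) came closest of the others. The classical heavy chain H2-K1 had an interval of 0.00 to 0.43 and the light chain B2m of -0.14 to 0.35. For MHC class II, 0 of 4 tested genes passed, and its transactivator Ciita had a read in 1 library only.

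Among nucleic acid sensors 2 of 8 tested rose. Zbp1, a sensor of Z-form nucleic acid that can trigger necroptosis, was at 42.0, 61.4 and 56.6 in wild type against 94.3, 132 and 97.2 under the Morrbid-/- label (1.00, SE 0.18; limma adjusted p = 0.00257). Ifih1, the gene of the double-stranded RNA sensor MDA5, was at 24.1, 31.2 and 18.3 in wild type against 55.8, 43.2 and 57.3 under the Morrbid-/- label (1.07, SE 0.24; adjusted p = 0.0266). Zbp1 lost its call without Morrbid-/- replicate 2 (adjusted p = 0.102), and Ifih1 without wild-type replicate 3 or any of the Morrbid-/- replicates (0.0607 to 0.211). Ddx58, which encodes RIG-I, was at 0.43, 95% interval 0.15 to 0.72 (adjusted p = 0.356).

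Of 21 tested genes on the list named for antiviral restriction factors, 3 rose. A place on this list, as for Ms4a4c, does not show that a gene is such a factor. Samhd1, which depletes the nucleotides that viral DNA synthesis needs, was at 646, 925 and 882 in wild type against 1461, 1829 and 1867 under the Morrbid-/- label (1.08, SE 0.12; limma adjusted p = 3.60e-06). The membrane protein gene Ms4a4c was at 313, 243 and 275 in wild type against 542, 660.0 and 547 under the Morrbid-/- label (1.07, SE 0.11; adjusted p = 1.15e-06). Both stood far apart by genotype. Rtp4, from few reads, was at 17.9, 11.4 and 20.6 in wild type against 35.5, 49.8 and 31.7 under the Morrbid-/- label (1.19, SE 0.28; adjusted p = 0.0473), and its call was lost with DESeq2, without the filter on low values, and without wild-type replicate 2 or any Morrbid-/- replicate (adjusted p from 0.0551 to 0.603). Adar, an RNA-editing enzyme, was at 0.31, 95% interval 0.10 to 0.53 (adjusted p = 0.428). All of the 3 genes that passed in the PARP list of 6 lie side by side: Parp14 at 438, 538 and 497 in wild type against 791, 965 and 936 under the Morrbid-/- label (0.87, SE 0.10; adjusted p = 1.02e-05), Dtx3l (0.63, SE 0.10; adjusted p = 5.86e-04) and its partner Parp9 (0.74, SE 0.14; adjusted p = 0.00278). Parp9 was lost without Morrbid-/- replicate 2 (adjusted p = 0.119). In the TRIM list 9 of 10 members lay above 0 with a median of 0.28, and the smallest p-values were those of Trim34a (0.42, 95% interval 0.15 to 0.68; adjusted p = 0.308) and Trim21 (0.49, 95% interval 0.16 to 0.81; adjusted p = 0.392). The 7 Schlafen genes, regulators of T cell quiescence and growth, had a median of 0.02 and 0 calls. Slfn1 was at 0.30, 95% interval 0.09 to 0.51 (adjusted p = 0.456), Slfn3 at 0.69, 95% interval 0.15 to 1.23 (adjusted p = 0.606), and Slfn2 had an interval of -0.37 to 0.16.

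**Figure D4:**
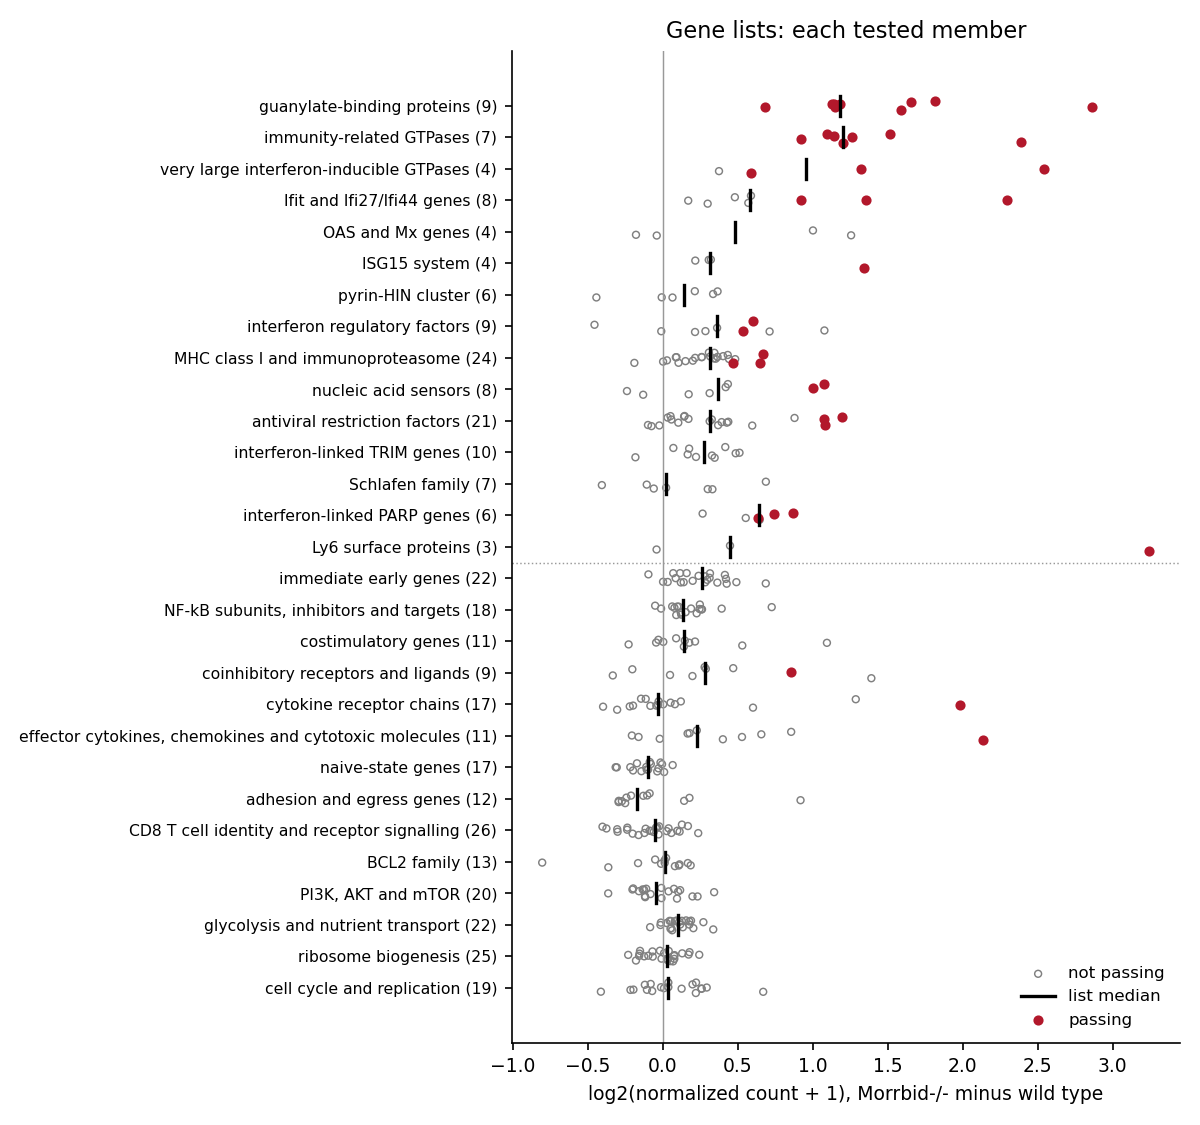
Each point is a tested gene, placed by its difference in log2(normalized count + 1), Morrbid-/- label minus wild type. Filled points passed, open points did not, black bars are list medians, and numbers in brackets are genes tested. Medians lie at 1.18 and 1.20 for the top lists and at -0.10 for the naive-state genes.

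Several genes of T cell surface, signalling and transcription rose as well. Ly6a, which encodes the surface protein Sca-1, was nearly absent from wild type, at 0.894, 5.20 and 0.764, and was at 24.3, 26.2 and 24.6 under the Morrbid-/- label (3.24, SE 0.49; limma adjusted p = 2.39e-04). This was the largest difference of all genes that passed, but its size rests on few wild-type reads. Ly6a met the mean of 10 only through the libraries labelled Morrbid-/-, with group means of 25.0 against 2.29 in wild type. That also held for Cxcl10, Gbp10, Gm4070 and Ifit3, with wild-type means of 4.43, 3.92, 7.09 and 7.48. Its family member Ly6e was at 183, 185 and 206 in wild type against 252, 280.2 and 253 under the Morrbid-/- label, not passing (0.45, 95% interval 0.22 to 0.68; adjusted p = 0.0781). Il12rb2, the signalling chain of the interleukin-12 receptor, was at 18.8, 5.20 and 22.2 in wild type against 53.7, 55.0 and 56.3 under the Morrbid-/- label (1.98, SE 0.35; adjusted p = 0.00175). The libraries labelled Morrbid-/- hardly differed from each other, while wild-type replicate 2 was far below its group. Of 17 cytokine receptor chain genes tested, Il12rb2 alone passed, and Il15ra was at 1.29, 95% interval 0.46 to 2.12 (adjusted p = 0.331).

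Cd274, the gene of the inhibitory ligand PD-L1, was at 274, 180.0 and 253 in wild type against 389, 453 and 423 under the Morrbid-/- label (0.86, SE 0.13; limma adjusted p = 2.34e-04), the only call among 9 coinhibitory genes. The lowest library labelled Morrbid-/- exceeded the highest wild-type one by a margin. Pim2, a survival kinase induced by cytokines, was at 80.4, 85.3 and 100.1 in wild type against 152, 153 and 148 under the Morrbid-/- label (0.77, SE 0.14; adjusted p = 0.00228). Eomes, a transcription factor of effector and memory CD8 T cells, was at 51.8, 40.6 and 64.2 in wild type against 98.3, 83.8 and 96.2 under the Morrbid-/- label (0.84, SE 0.18; adjusted p = 0.0223). Its call was lost with DESeq2 and without wild-type replicate 2 or any Morrbid-/- replicate (adjusted p from 0.0566 to 0.198). Tbx21, the related factor T-bet, was at 6.26, 9.36 and 11.5 in wild type against 23.3, 22.3 and 8.19 under the Morrbid-/- label and overlapped (0.82, 95% interval -0.01 to 1.66; adjusted p = 0.814). The Eomes promoter held a response element core and that of Il12rb2 a gamma-activated site core.
Eomes (chr9:118478025-118478054, plus strand): taagctaagaGAAAATGAAActcgcaggcg
Il12rb2 (chr6:67376293-67376321, minus strand): gttcccttttTTCTCAGAAccgcactaag

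Cxcl10, a chemokine that draws CXCR3-bearing T cells, was the only call among 11 effector molecules tested, at 5.36, 1.04 and 6.88 in wild type against 18.2, 24.9 and 16.4 under the Morrbid-/- label (2.13, SE 0.47; limma adjusted p = 0.0264). Cxcl10 met the mean of 10 only through the libraries labelled Morrbid-/-, with a wild-type mean of 4.43. It was lost without Morrbid-/- replicate 3 or wild-type replicate 2 (adjusted p = 0.0707 and 0.139), and without Morrbid-/- replicate 2 its mean fell below the filter. Ccl3 was at 20.6, 21.9 and 32.9 in wild type against 47.6, 43.2 and 45.0 under the Morrbid-/- label, without overlap (0.86, 95% interval 0.37 to 1.35; adjusted p = 0.168). Ccl4 (0.53, 95% interval 0.12 to 0.93; adjusted p = 0.582) and the granzyme inhibitor gene Serpinb9 (0.66, 95% interval 0.20 to 1.11; adjusted p = 0.435) were likewise above wild type in every library without passing. Tnf (0.17, 95% interval -0.15 to 0.49), Xcl1 (0.18, 95% interval -0.12 to 0.48), Lta (0.40, 95% interval -0.14 to 0.94), Serpinb6b (0.23, 95% interval -0.41 to 0.87), Ltb (-0.16, 95% interval -0.46 to 0.13), Tnfsf10 (-0.21, 95% interval -0.66 to 0.25) and Prf1 (-0.02, 95% interval -0.43 to 0.39) overlapped between genotypes, with adjusted p-values from 0.906 to 0.993. Gzmb and Il2 had at most 4.09 normalized counts in any library. Kit, a receptor tyrosine kinase gene, was at 9.83, 9.36 and 16.1 in wild type against 26.4, 32.7 and 35.8 under the Morrbid-/- label (1.38, SE 0.30; adjusted p = 0.025), and was lost with DESeq2 and without wild-type replicate 1 or 2 or Morrbid-/- replicate 2 or 3 (adjusted p from 0.0673 to 0.213). Wars, an interferon-inducible tRNA synthetase gene, was at 116, 106 and 108 in wild type against 176, 169 and 159 under the Morrbid-/- label (0.61, SE 0.13; adjusted p = 0.0155), and was lost without wild-type replicate 2 or 3 or Morrbid-/- replicate 1 or 2 (0.0574 to 0.136). Neither Kit nor Wars overlapped between genotypes. The pseudogene Tmem181b-ps (1.20, SE 0.22; adjusted p = 0.0037) was lost without Morrbid-/- replicate 2 or 3 (0.0805 and 0.0704). The gene models C920009B18Rik (0.71, SE 0.16; adjusted p = 0.0284) and Gm16675 (1.10, SE 0.24; adjusted p = 0.0258) also rose. Both were lost with DESeq2 and without any of 3 and 4 libraries, respectively, wild-type replicate 2 and Morrbid-/- replicates 2 and 3 in both and wild-type replicate 1 in Gm16675 (adjusted p from 0.0923 to 0.443). C920009B18Rik was also lost with a mean of at least 50 (adjusted p = 0.0566).

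Genes that mark early T cell activation did not pass, and 1 library of each genotype stood apart in them. Of 22 immediate early genes 0 passed, while 21 lay above 0 with a median of 0.26. Myc was at 126, 136 and 164 in wild type against 198, 181 and 187 under the Morrbid-/- label (0.41, 95% interval 0.15 to 0.68; limma adjusted p = 0.305) and Nr4a3 at 0.28, 95% interval 0.04 to 0.53 (adjusted p = 0.699). The list's normalized counts summed to 3279, 2807 and 3238 in wild type and to 3718, 3210 and 3324 under the Morrbid-/- label. Wild-type replicate 2 was the lowest of its group for 13 of the 22, for 11 of 18 NF-kB genes and for 8 of 9 coinhibitory genes, against 33.7% of all genes tested. Morrbid-/- replicate 1 was the highest of its group for 15 of the 22 immediate early genes, against 35.2% of all, and the lowest for 0. Its mean log2 deviation over them was 0.28, against 0.08 and 0.01 in replicates 2 and 3. Wild-type replicate 2 was also the highest for 15 of 17 naive-state genes, against 33.1% of all. With wild-type replicate 2 left out, 41 genes were higher and 6 lower. The NF-kB list had a median of 0.14 and 0 calls, with Icam1 at 0.39, 95% interval 0.11 to 0.67 (adjusted p = 0.482) and Cd83 at 0.73, 95% interval 0.17 to 1.28 (adjusted p = 0.568). Cd44, the activation marker on which the cells had been sorted as low, was at 39.3, 22.9 and 35.2 in wild type against 51.7, 64.2 and 67.5 under the Morrbid-/- label, without overlap and just outside the threshold (0.92, 95% interval 0.46 to 1.38; adjusted p = 0.0614). The costimulatory ligand gene Cd86 was at 11.6, 15.6 and 9.94 in wild type against 26.4, 27.5 and 27.6 under the Morrbid-/- label (1.09, 95% interval 0.48 to 1.71; adjusted p = 0.153), and 0 of 11 costimulatory genes passed. Tnfrsf4, the gene of the receptor that binds OX40 ligand, was at 0.53, 95% interval -0.04 to 1.10 (adjusted p = 0.825).

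No naive-state or identity gene passed. Of 17 naive-state genes 15 lay below 0, with a median of -0.10 and 0 calls. Wild-type replicate 2 stood apart here, with a mean log2 deviation of 0.17, against -0.0005 and -0.01 in wild-type replicates 1 and 3. The libraries labelled Morrbid-/- were at -0.03 to -0.06. S1pr1, which lets T cells leave lymph nodes, was at 1573, 1824 and 1469.8 in wild type against 1248, 1355 and 1319 under the Morrbid-/- label (-0.31, 95% interval -0.51 to -0.10; limma adjusted p = 0.384), and Cdkn1b, a cell cycle inhibitor, at -0.31, 95% interval -0.55 to -0.08 (adjusted p = 0.546). The 26 genes of CD8 identity and receptor signalling had a median of -0.05, and the smallest p-values were those of Cd3d (-0.40, 95% interval -0.67 to -0.13; adjusted p = 0.378) and Plcg1 (-0.30, 95% interval -0.52 to -0.09; adjusted p = 0.457). Among 12 adhesion and egress genes, Itga6 was at -0.27, 95% interval -0.48 to -0.07 (adjusted p = 0.56). The PI3K, AKT and mTOR list gave 0 calls of 20, with Pik3r1 at -0.36, 95% interval -0.59 to -0.13 (adjusted p = 0.302) and Rptor at 0.23, 95% interval 0.01 to 0.46 (adjusted p = 0.791).

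Bcl2l11 was lower in every library labelled Morrbid-/- than in any wild-type one, at 386, 322 and 459 in wild type against 320.3, 268 and 311 under the Morrbid-/- label, but the groups all but touched and the gene did not pass (-0.36, 95% interval -0.61 to -0.11; limma adjusted p = 0.424). Libraries lay in that order for 5.39% of all genes tested. The other 8 tested genes around Morrbid did not pass, with Acoxl at -0.82, 95% interval -1.74 to 0.10 (adjusted p = 0.863) and Slc20a1 at -0.19, 95% interval -0.42 to 0.03 (adjusted p = 0.868). The remaining BCL2 family did not pass either. Bmf, another BH3-only killer gene, was at 12.5, 17.7 and 13.8 in wild type against 9.12, 6.55 and 8.19 under the Morrbid-/- label (-0.80, 95% interval -1.57 to -0.04; adjusted p = 0.779). The survival genes Bcl2 and Mcl1 had intervals of -0.40 to 0.07 and -0.12 to 0.29, which exclude a change of 2-fold. The 21 genes of death receptors, caspases and necroptosis had a median of 0.03, with Apaf1 at 0.29, 95% interval -0.01 to 0.58 (adjusted p = 0.814) and Casp9 at 0.46, 95% interval -0.19 to 1.10 (adjusted p = 0.913). Of 11 tested p53 targets 0 passed, with Sesn1 at -0.33, 95% interval -0.59 to -0.07 (adjusted p = 0.606) and Sesn2 at 0.55, 95% interval -0.38 to 1.48 (adjusted p = 0.942).

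Lists of glycolysis, lipid synthesis, ribosome biogenesis and the cell cycle held 0 calls as well. Their medians were 0.10 for 22 glycolysis and transport genes, -0.03 for 16 sterol and fatty acid genes, 0.03 for 25 ribosome biogenesis genes and 0.04 for 19 cell cycle genes. Smallest in p were, in that order of lists, the amino acid transporter gene Slc7a5 (0.27, 95% interval 0.00 to 0.54; limma adjusted p = 0.813) and Pfkl (0.34, 95% interval -0.02 to 0.69; 0.814), the sterol regulator gene Srebf2 (-0.20, 95% interval -0.41 to 0.01; 0.814) and Fdps (-0.48, 95% interval -1.03 to 0.08; 0.868). In the other lists they were Utp20 (0.17, 95% interval -0.03 to 0.38; adjusted p = 0.868) and Dkc1 (-0.18, 95% interval -0.40 to 0.05; 0.883), and the topoisomerase gene Top2a (0.67, 95% interval 0.18 to 1.16; 0.507). Ccnd2, a cyclin that the T cell receptor induces, was at 501, 423 and 495 in wild type against 645, 558 and 537 under the Morrbid-/- label (0.29, 95% interval 0.08 to 0.51; adjusted p = 0.507). The 17 genes of the unfolded protein, integrated stress and heat shock responses had a median of -0.03, with Ddit3 at -0.78, 95% interval -1.53 to -0.04 (adjusted p = 0.778) and Dnajb9 at -0.37, 95% interval -0.70 to -0.04 (adjusted p = 0.767). Of 19 tested nuclear-encoded genes of mitochondrial respiration and translation 1 fell (Lars2, described below), and the median was 0.01. Transcripts encoded in mitochondria had a median of -0.15 over 10 genes, with ND1 at -0.20, 95% interval -0.42 to 0.03 (adjusted p = 0.868) and ND6 at -0.24, 95% interval -0.48 to 0.00 (adjusted p = 0.814). Morrbid-/- replicate 3 was the lowest of its group for 7 of these 10 genes, with a mean log2 deviation of -0.20, against 0.02 and 0.0015 in replicates 1 and 2 and 0.05 to 0.08 in wild type.

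The 9 lower genes had little in common. Erdr1, at the end of the X chromosome, was at 427, 269 and 456 in wild type against 65.9, 81.2 and 113 under the Morrbid-/- label (-2.13, SE 0.18; limma adjusted p = 4.16e-08). Mid1, the microtubule-bound ubiquitin ligase gene next to it, was at 45.6, 34.3 and 55.8 in wild type against 9.12, 15.7 and 13.3 under the Morrbid-/- label (-1.76, SE 0.28; adjusted p = 6.65e-04). Both fell by more than 3-fold, and both sit near the boundary of the region that the X and Y chromosomes share. The other tested gene of that stretch, G530011O06Rik, was level (-0.02, 95% interval -0.51 to 0.47; adjusted p = 0.994), as was the neighbour Hccs (0.05, 95% interval -0.22 to 0.31). Synj2, a phosphoinositide phosphatase gene, was at 44.7, 42.7 and 48.2 in wild type against 7.10, 11.8 and 11.3 under the Morrbid-/- label (-2.09, SE 0.28; adjusted p = 6.14e-05). Rell1, a relative of the TNF receptor family, was at 54.5, 63.5 and 44.3 in wild type against 13.2, 13.1 and 16.4 under the Morrbid-/- label (-1.85, SE 0.25; adjusted p = 6.14e-05). The spread within each genotype was small beside the gap for both.

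Ide, the insulin-degrading enzyme gene, was at 496, 474 and 492 in wild type against 234, 269.8 and 253 under the Morrbid-/- label, a 1.93-fold fall with little spread within genotype (-0.95, SE 0.10; limma adjusted p = 1.48e-06). Its neighbour Fgfbp3, below the mean of 10, was at 16.1, 16.6 and 9.17 in wild type against 7.10, 3.93 and 4.09 under the Morrbid-/- label, also without overlap. Btaf1, on the same stretch, was at 1111, 1138 and 1149.6 in wild type against 890.0, 989 and 916 under the Morrbid-/- label and did not pass (-0.28, 95% interval -0.47 to -0.09; adjusted p = 0.384). The other tested genes of the stretch did not pass: Marchf5 (0.24, 95% interval -0.05 to 0.53), Tnks2 (-0.16, 95% interval -0.36 to 0.04), Hectd2 (-0.07, 95% interval -0.40 to 0.27), Exoc6 (-0.05, 95% interval -0.30 to 0.21), Pcgf5 (-0.04, 95% interval -0.45 to 0.36) and Kif11 (0.04, 95% interval -0.57 to 0.65). Cpeb3, on the same stretch and below the mean of 10, was at 5.36, 2.08 and 1.53 in wild type against 7.10, 11.8 and 6.14 under the Morrbid-/- label, in the opposite order. Copy number of the segment with Ide and Fgfbp3 is known to vary among C57BL/6J mice, and it was not measured here.

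Lars2, the mitochondrial leucyl-tRNA synthetase gene, was at 102, 115 and 89.4 in wild type against 40.5, 43.2 and 65.5 under the Morrbid-/- label (-1.05, SE 0.19; limma adjusted p = 0.00229), and with wild-type replicate 2 left out its call was lost (adjusted p = 0.0542). Ccr9, a receptor for homing to the gut, lies near it and was at 90.3, 159 and 104 in wild type against 51.7, 61.5 and 76.7 under the Morrbid-/- label (-0.86, SE 0.19; adjusted p = 0.0266). The Ccr9 call was lost with a mean of at least 50 and without wild-type replicate 2 or Morrbid-/- replicate 1 or 2 (adjusted p from 0.0595 to 0.490). The other 4 tested chemokine receptor genes did not pass. Gm14085, a gene model, was at 643, 741 and 668 in wild type against 373, 449 and 444 under the Morrbid-/- label (-0.70, SE 0.10; adjusted p = 1.82e-04). Yae1d1 was at 92.1, 78.0 and 78.0 in wild type against 50.7, 45.8 and 48.1 under the Morrbid-/- label (-0.76, SE 0.17; adjusted p = 0.0286), and was lost with DESeq2, after rescaling to equal totals, and without any of 5 libraries, that is every one but Morrbid-/- replicate 1 (adjusted p from 0.0682 to 0.207).

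**Figure D5:**
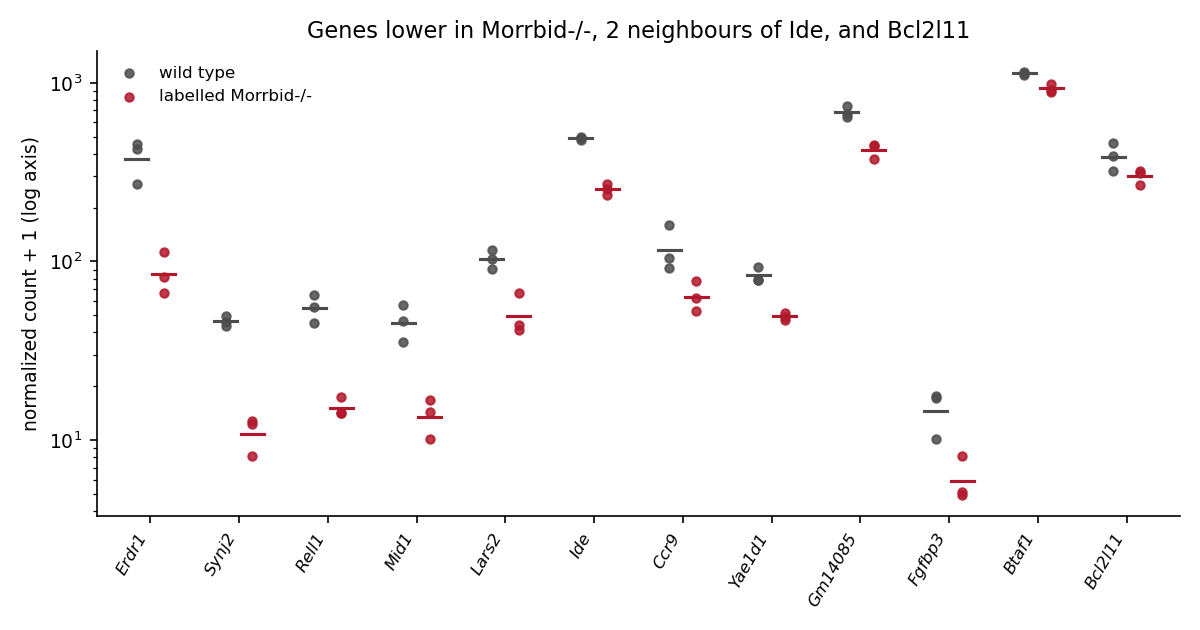
Normalized count + 1 on a log axis for the 9 genes that fell, followed by Fgfbp3, Btaf1 and Bcl2l11, with 1 point per library and bars at the mean of the log values. In all 12 genes the libraries labelled Morrbid-/- (red) lie below wild type (grey), an order found in 5.39% of all genes tested. Fgfbp3 was too low for the test, and Btaf1 and Bcl2l11 did not pass.

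The genes that passed were grouped by their positions. With a gap of at most 1 Mb, 32 of the 59 fell into 10 clusters in GRCm38.p6. Most of these clusters were made of members of the gene families described above. How often tested genes lie this close in general was not counted, so 32 of 59 describes positions only and cannot be called many or few. At chr3:142496934-142638008 all 4 tested genes rose (Gbp5, Gbp7, Gbp3 and Gbp2), and at chr5:105012513-105295871 all 5 did (Gbp8, Gbp9, Gbp4, Gbp10 and Gbp6). At chr11:48865245-49096987 5 of 6 rose (Irgm1, Gm12185, Tgtp1, Tgtp2 and Ifi47), while 9930111J21Rik1 was level (-0.04, 95% interval -0.25 to 0.17). At chr11:58183843-58222783 all 3 rose (Gm12250, Igtp and Irgm2), as did all 3 at chr16:35831892-35972621 (Parp14, Dtx3l and Parp9). At chr7:105895118-106644646 4 of 6 tested genes rose (Gm4070, Gvin1, Gm8995 and Gm1966). At chr19:34583119-34650009 Ifit3 and Ifit1 rose and Ifit1bl1 did not pass (0.48, 95% interval 0.18 to 0.79; limma adjusted p = 0.308). The clusters of lower genes were Lars2 with Ccr9 at chr9:123366927-123783457, and Mid1 with Erdr1 at chrX:169685199-170018797. At chr17:5941280-6450994 the directions were opposite, with Synj2 lower and Tmem181b-ps higher, and the 4 genes tested between them did not pass.

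The largest differences that did not pass, among genes whose mean reached 50, were as follows. Above 0 these were Wdfy1 (0.73, 95% interval 0.36 to 1.10; limma adjusted p = 0.0715), Cdk5rap1 (0.72, 95% interval 0.34 to 1.11; adjusted p = 0.107), Scamp3 (0.72, 95% interval 0.30 to 1.15; adjusted p = 0.198), Eif6 (0.70, 95% interval 0.22 to 1.17; adjusted p = 0.414) and Atp2b4 (0.67, 95% interval 0.19 to 1.15; adjusted p = 0.462). Wdfy1, an endosomal adaptor gene, was at 74.2, 45.8 and 68.8 in wild type against 104, 91.7 and 113 under the Morrbid-/- label, without overlap. Below 0 were Gria3 (-0.93, 95% interval -1.51 to -0.36; adjusted p = 0.258), Sh3bgrl (-0.74, 95% interval -1.17 to -0.31; adjusted p = 0.195), Acp5 (-0.67, 95% interval -1.13 to -0.22; adjusted p = 0.396), Eps8l1 (-0.61, 95% interval -1.0 to -0.23; adjusted p = 0.302) and Slc6a19 (-0.59, 95% interval -0.97 to -0.21; adjusted p = 0.324). Gria3 was at 40.2, 117 and 59.6 in wild type against 33.5, 26.2 and 44.0 under the Morrbid-/- label, with wild-type replicate 2 far above the rest of its group.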

How the data were processed

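RNA was measured by paired 75-base sequencing of 6 libraries, 3 labelled wild type and 3 labelled Morrbid-/-. The authors deposited normalized counts, a signal in which each library is divided by a scaling factor. Per the submitters' processing notes, the tools included STAR 2.5, Trimmomatic, featureCounts and DESeq2 and the build was GRCm38/mm10, with no roles stated. Annotation, strand and filters were not given in the sources used here. Reads of near-identical, antisense or overlapping genes may therefore be shared. Whole reads could be recovered for 100% of the deposited values within 0.01. Values were taken as log2(normalized count + 1), genes with a mean of at least 10 over the 6 libraries were kept, and genotypes were compared with limma 3.58.1 (R 4.3.3) with a mean-variance trend and no block, at a Benjamini-Hochberg adjusted p under 0.05. On recovered reads, edgeR 4.0.16 called 59 genes and DESeq2 1.42.0 called 52. The limma test was tested on simulated data. Gene positions and promoters came from RefSeq, which matched 14096 of the 14732 genes. A symbol was lacking for 222 genes, and 20 symbols turned into dates were replaced through their gene IDs.

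Genes named were Morrbid and Bcl2l11, the genes that passed, the 2 members with the smallest p of lists with no call, all tested effector cytokine genes, the genes of the Ide segment, and the 5 largest differences in each direction that did not pass at a mean of at least 50. The members and lists were chosen with earlier results of these data known. Other genes named were chosen after their values were seen. Alternatives were other scalings, pseudocounts, filters and variance models, each library left out, and a replicate block. The results of some genes, of which 1 passed, are not reported here, though they are in all counts.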

Additional observations from a re-analysis of the deposited data

How the results depend on the processing

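The 50 higher and 9 lower genes became 44 and 8 with DESeq2, 50 and 9 with edgeR, 53 and 9 with array weights, 50 and 10 without a filter, 54 and 8 after rescaling to equal totals, and 50 to 51 and 9 with pseudocounts of 0.5 or 5. Without the mean-variance trend they were 13 and 4. With a mean of at least 50, 5 genes were lower. With the share of 16S rRNA as a covariate, 71 were higher and 32 lower. With each library left out in turn, 31 to 52 were higher and 6 to 23 lower. No alternative moved the median of all genes beyond 0.044 from 0.

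Deviations of same-numbered replicates from their group means had correlations of 0.20, -0.02 and 0.15. Those of numbers 1 and 3 were the highest of all pairs across genotypes, while that of number 2 was not. The labels do not say that libraries pair by number, and so few correlations cannot decide it. With a replicate block 94 genes were higher and 75 lower, and Bcl2l11 passed (adjusted p = 0.0122).

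Of 1938 values of 104 named genes, 1796 kept their direction and side of the threshold, 119 no longer passed, 22 newly passed and 1 changed sign. That was Kcnq1ot1, a noncoding RNA that did not pass, at 0.11, and from -0.013 without Morrbid-/- replicate 3 to 0.24 without replicate 1. The cause was not tested. Reads limited genes with a mean of 10 to 50, and many interferon targets, Isg15 and Mx1 among them, were too low to test.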

Other observations

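The nuclear noncoding RNA and MHC class II lists held 0 genes that passed. Of 11 tested noncoding RNAs, which shape chromatin and RNA processing, 5 lay above 0 and the median difference was -0.04. The imprinted antisense RNA Kcnq1ot1 was at 0.11, 95% interval -0.13 to 0.35 (limma adjusted p = 0.955), and the ribosomal precursor Rn45s at -0.19, 95% interval -0.64 to 0.26 (adjusted p = 0.955). Among the MHC class II genes, the promoter-binding factors Rfxank and Rfx5 had the smallest p, at -0.61, 95% interval -1.17 to -0.05 (adjusted p = 0.769) and 0.33, 95% interval -0.06 to 0.71 (adjusted p = 0.868).

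Markers of other cells were low in both genotypes. The 2 CD4 T cell markers found summed to 6.24 to 9.17 normalized counts in wild type and 9.12 to 15.7 under the Morrbid-/- label. The 3 gamma-delta T cell markers found summed to 7.15 to 21.9 and 7.86 to 19.3, and the 3 neutrophil markers to 3.06 to 6.26 and 3.93 to 9.21. Pecam1, listed for stroma but also made by T cells, took nearly all of a sum of 275 to 334.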
